A study of Sus scrofa with 36 samples.

Results

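Pig (Sus scrofa) cells labelled endothelial on day 6 of differentiation were compared with the undifferentiated induced pluripotent stem cells (iPSCs) of the same line on day 0. The 6 libraries, 3 per group, were chosen by their labels from the 36 bulk RNA-seq libraries of a study that derived pig iPSC lines and followed their differentiation. Both groups came from clone 8, so the comparison describes 1 clonal line. The day 0 cells were undifferentiated and had been separated from their MEF feeder layer. The medium, growth factors and any sorting that gave the day 6 cells were not given in the sources used here. A single model was fitted to 15 clone 8 libraries, which added 3 libraries each of mesendoderm (day 1, E8A100ch3), presomitic mesoderm (day 2, S1LDN medium) and somite cells (day 3, S2LDN medium). The labels do not say whether the endothelial cells passed through these states, so they are other states of the line here and not stages of a course. The beating cardiomyocyte (day 9) and neural progenitor (day 24) libraries were left out. In those groups the cardiac troponin T gene TNNT2 stood at 4380, 4.28 and 4409 TPM in the cardiomyocyte libraries and 5155, 3.38 and 2.48 TPM in the neural progenitor libraries. The neural gene PAX6 stood at 0.27, 254 and 0.08 TPM and at 0.19, 360 and 339 TPM, so cardiomyocyte replicate 2 and neural progenitor replicate 1 went against their labels.

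Endothelial cells line blood and lymph vessels. Vascular endothelial growth factor (VEGF) acts through the receptor kinase KDR to call them out of mesoderm, ETS, GATA and SOXF transcription factors drive their genes, and angiopoietins acting on TEK, together with Notch and COUP-TFII, shape vessel stability and arterial or venous fate. VE-cadherin (CDH5) and PECAM1 hold the cells together at their junctions.

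Total estimated counts were 8152284 to 8604970 in the day 0 libraries and 3649335, 9727315 and 9470551 in the day 6 libraries, and 3649335 to 9727315 over the 15 libraries fitted. The labels do not tell whether replicate libraries stem from different cultures, and the p-values therefore reflect only their spread, which could be technical. Levels are in TPM, a gene's share of a library's transcripts scaled for gene length, so that genes can be compared. Fold changes are log2 values, day 6 minus day 0, ± SE from the edgeR quasi-likelihood test of the counts. A change passed where its p, adjusted over all genes tested, was under 0.05. Of 13597 genes tested, 3222 (23.7%) were higher on day 6 and 3264 (24%) were lower, and the median change over all genes was -0.03. All 3 day 6 libraries lay above all 3 day 0 libraries for 30.5% of these genes and below them for 31.5%, or 62% in either direction. A minimum fold change of 2 left 1129 genes higher (8.3%) and 783 lower (5.76%). With the cardiomyocyte and neural progenitor libraries added to the fit as labelled, 1646 of 14248 genes were higher on day 6 and 1106 lower. Day 6 replicate 1, the library with the fewest counts, had the highest TPM of its group for 47.1% of genes tested. In bulk RNA, fewer cells of a type and less RNA per cell cannot be told apart.

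The 3 genes that mark endothelial cells were all abundant on day 6. CDH5 (chromosome 6, 27108560 to 27142145 on Sscrofa11.1) stood at 0.06, 0 and 0.13 TPM in the day 0 libraries and at 100.2, 73 and 83.9 TPM on day 6. The junctional adhesion gene PECAM1 (chromosome 12, 14667643 to 14723296) went from 0.42, 0.5 and 0.5 to 281, 276 and 295 TPM. The VEGF receptor gene KDR (chromosome 8, 41809116 to 41856379) went from 4.35, 2.14 and 2.73 to 153, 133 and 133 TPM. No day 6 library overlapped a day 0 library for any of the 3, and their summed level was 2.64 to 4.83 TPM on day 0 against 482 to 534 TPM on day 6. The log2 fold changes were 10.17 ± 0.49 for CDH5 (adjusted p = 3.02e-12), 9.04 ± 0.29 for PECAM1 (2.32e-14) and 5.49 ± 0.23 for KDR (6.13e-13). With so few day 0 reads the CDH5 value moved with the libraries used, to 11.03 without day 0 replicate 3. KDR was also high elsewhere, at 162, 112 and 93.9 TPM in the day 1 mesendoderm libraries. It averaged 24 TPM on day 2 and 6.04 TPM on day 3, and the difference between day 6 (139.6 TPM on average) and day 1 (122 TPM) did not pass. CDH5 and PECAM1 were higher on day 6 than on each of days 0 to 3, a pattern called for 897 genes (6.6% of those tested), against 439 (3.23%) that were lower than on each.

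**Figure D1:**
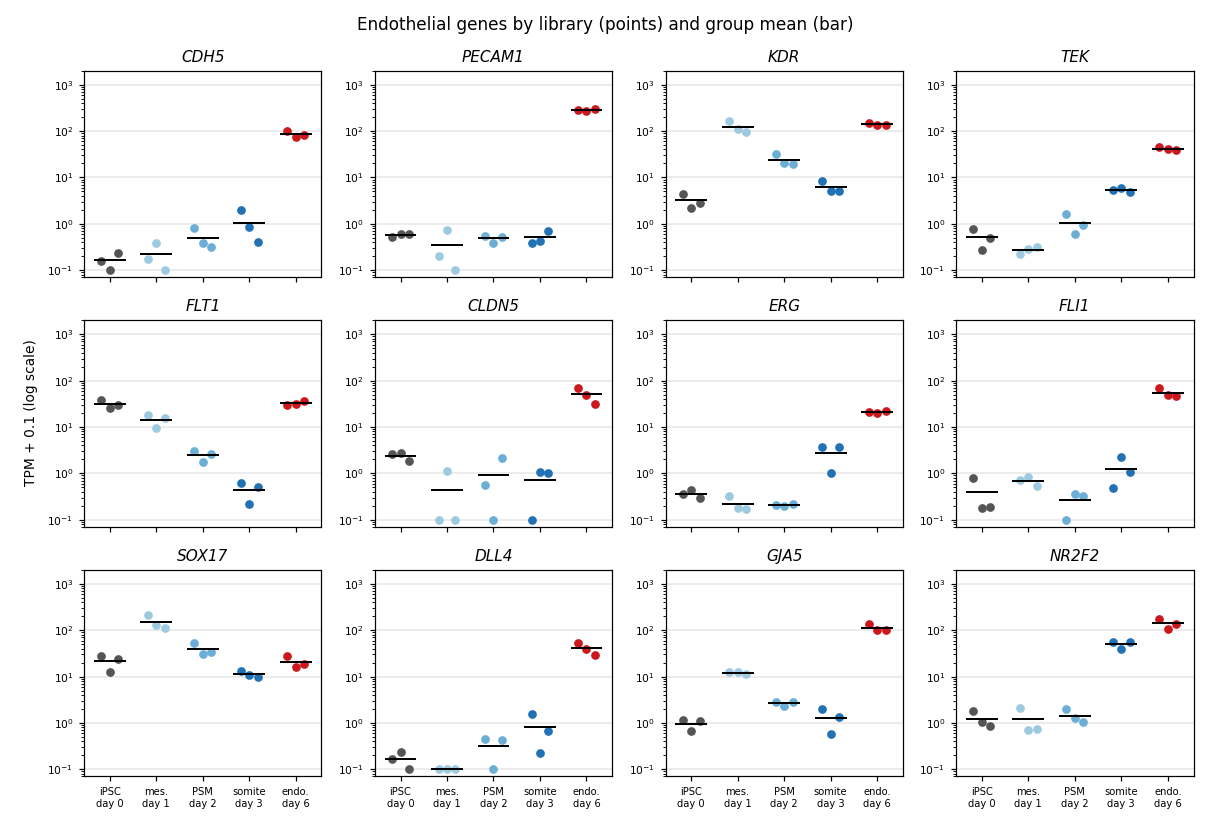
Levels of 12 endothelial genes in the 15 clone 8 libraries (points), as TPM + 0.1 on a log axis, with the group means as bars. CDH5 and PECAM1 stayed near or below 1 TPM on average until day 6, KDR was high on days 1 and 6, and FLT1 and SOX17 had overlapping day 0 and day 6 libraries.

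Receptors, adhesion molecules and junction proteins of endothelial cells formed a list of 25 genes. Of these 20 were higher on day 6 (23.7% of all genes tested were), 1 was lower, 3 did not pass and ICAM2 was too low to be tested, with a median log2 fold change of 4.64 over the 24 tested. The receptor kinase gene TEK, which encodes TIE2, stood at 0.68, 0.17 and 0.39 TPM on day 0 and 45.7, 41.8 and 38.3 TPM on day 6 (6.71 ± 0.33, adjusted p = 5.18e-12, and 7.31 without day 0 replicate 1). Its partner TIE1 went from 3.71, 2 and 3.42 to 41.3, 28.5 and 29 TPM (3.30 ± 0.31). CD93, a C-type lectin of the endothelial surface, went from 0.26, 0 and 0.13 to 134, 102 and 107 TPM (9.71 ± 0.38), and without day 0 replicate 1 its change was 10.90. EMCN, the sialomucin endomucin, had no reads on day 0 and stood at 20.1, 10.7 and 12.4 TPM on day 6, at least 124-fold higher when day 0 is set to 3 counts over the group. The guidance receptor gene ROBO4 was likewise at 0 on day 0 and at 4.27, 2.18 and 3.68 TPM on day 6 (at least 47.8-fold). None of these day 6 libraries overlapped day 0.

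Further members, chosen after their values were seen, showed how widely the levels differed. PLVAP, which forms the diaphragms of endothelial fenestrae, was the most abundant of the group at 849.6, 911 and 891 TPM, against 33.9, 27.2 and 26.1 TPM on day 0 (4.91 ± 0.16). CLDN5, the tight junction claudin of vessels, rose from 2.58, 2.6 and 1.75 to 69.3, 49.8 and 31.7 TPM (4.37 ± 0.54). ESAM, a junctional adhesion molecule, rose from 0.4 to 19.1 TPM on average. The sphingosine-1-phosphate receptor gene S1PR1 rose from 0.167 to 7.56 TPM and CLEC14A from 0.293 to 9.74 TPM. EGFL7, a secreted endothelial factor, was already at 20.6 TPM in iPSCs and reached 76.4 TPM (1.93 ± 0.19). The single member that fell was F11R, the gene of the junctional adhesion molecule JAM-A that epithelia also carry, from 446, 438 and 393 to 109, 116 and 108 TPM (-1.95 ± 0.17, adjusted p = 1.79e-08). With the cardiomyocyte and neural progenitor libraries added to the fit as labelled, EGFL7 no longer passed (adjusted p = 0.082).

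**Figure D2:**
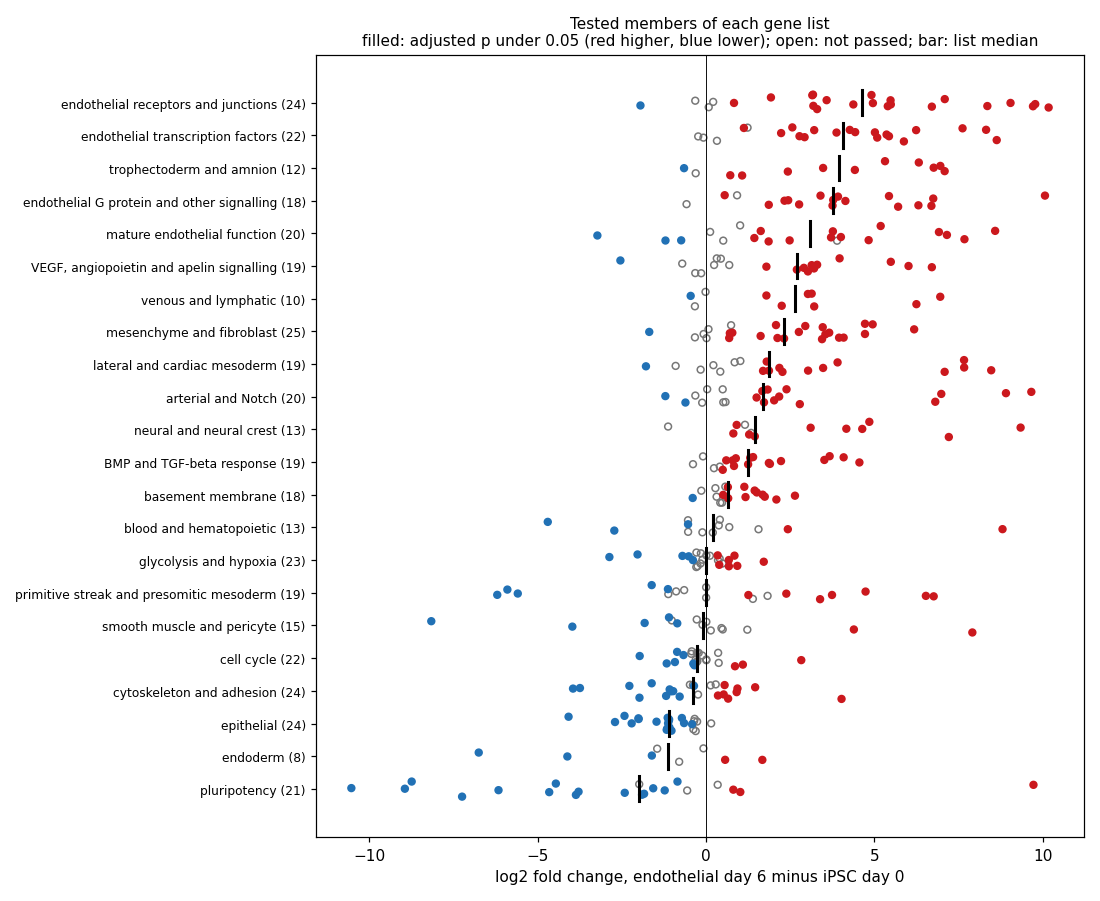
Log2 fold changes of the tested members of 22 gene lists, ordered by list median (bar), with members that passed in red (higher) or blue (lower) and the others open. The median was 4.64 for endothelial receptors and junctions, 4.07 for endothelial transcription factors, -1.10 for epithelial genes and -1.99 for pluripotency genes.

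Of 20 ligand and receptor genes of the VEGF, angiopoietin and apelin systems, 11 rose, 1 fell, 7 did not pass and VEGFD was too low to be tested, and the median change was 2.69. Among the receptors, the lymphatic VEGF receptor gene FLT4 rose from 1.39, 0.74 and 0.96 to 11, 8.02 and 6.84 TPM (3.02 ± 0.37). The co-receptor genes NRP1 and NRP2 rose from 4.12 to 26.8 TPM (2.69 ± 0.19) and from 8.63 to 76.7 TPM (3.14 ± 0.26), and PLXND1, a receptor for semaphorins, rose from 5.65 to 43.2 TPM (2.90 ± 0.31). FLT1, which encodes VEGFR1, stood at 37.7, 26.2 and 29.6 TPM in the iPSC libraries and 30.2, 31 and 36.5 TPM on day 6, the groups overlapped, and the change was -0.32 ± 0.21 (adjusted p = 0.217). Against the day 3 somite libraries, where it was at 0.51, 0.12 and 0.41 TPM, the same day 6 level was a rise of 5.81 ± 0.33 (adjusted p = 3.57e-11).

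None of the 3 VEGF ligands tested passed. VEGFA stood at 9.46, 5.62 and 7.78 TPM on day 0 and 8.53, 9.33 and 11.09 TPM on day 6 (0.32 ± 0.27, adjusted p = 0.342). VEGFC stood at 12.3 and 16.9 TPM on average (0.44 ± 0.23, 0.12) and VEGFB at 26.4 and 16.5 TPM (-0.71 ± 0.29, 0.0532). Fitted to the 6 libraries alone, VEGFC, VEGFB and the TEK ligand gene ANGPT1 (16 and 25.6 TPM, 0.69 ± 0.32, 0.0889) did pass, with adjusted p = 0.007, 0.0099 and 0.00092. PGF, a ligand of FLT1, rose from 0.79, 1.91 and 1.25 to 10.3, 14.7 and 11.8 TPM (3.21 ± 0.56, adjusted p = 0.000103). ANGPT2, the angiopoietin that endothelial cells make themselves, rose from 0.42, 0.21 and 0.65 to 27.1, 38.2 and 40.0 TPM (6.01 ± 0.34, adjusted p = 3.52e-11).

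In the apelin system the ligands went opposite ways. APLN, a ligand that sprouting tip cells secrete, rose from 1.23, 0.39 and 0.08 to 16.8, 5.55 and 6.12 TPM (3.96 ± 0.70, and 5.21 without day 0 replicate 1). APELA, the other ligand of the same receptor and abundant in pluripotent cells, fell from 93.7, 125 and 129 to 17.2, 20.9 and 20.7 TPM (-2.55 ± 0.20, adjusted p = 3.3e-09). Their receptor gene APLNR rose from 9.15 to 32.3 TPM (1.79 ± 0.25) but was far higher on day 1, at 393, 235 and 163 TPM. ANGPTL4 (7.54 and 6.95 TPM) and SEMA3E (10.1 and 12.8 TPM) did not pass.

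**Figure D3:**
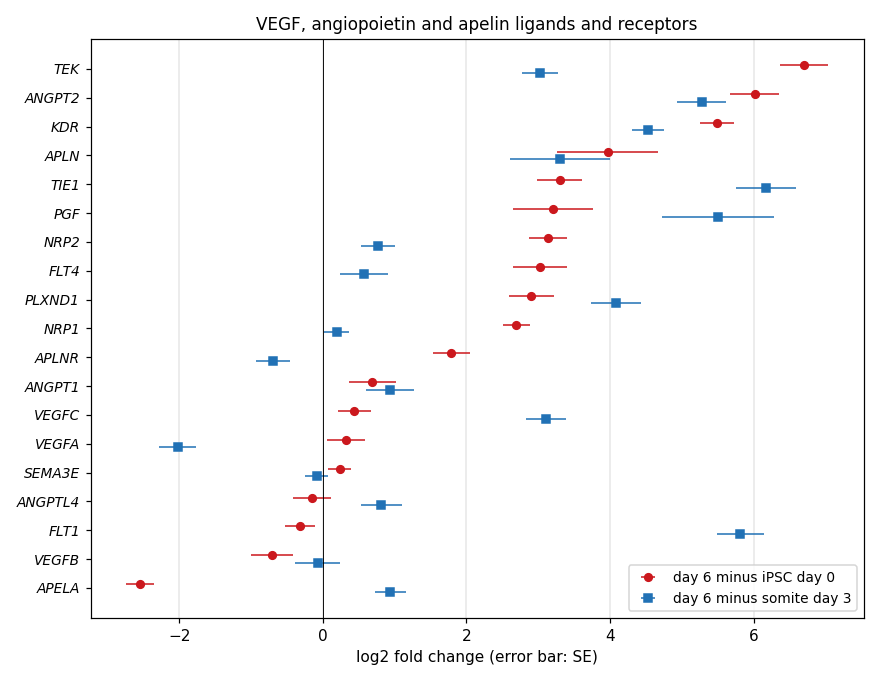
Log2 fold changes (± SE) of 19 VEGF, angiopoietin and apelin genes on day 6 relative to iPSC day 0 (circles) and to somite day 3 (squares), comparisons that share the day 6 libraries. FLT1 was near 0 against day 0 and 5.81 against day 3, while VEGFA was 0.32 and -2.02.

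Among 23 transcription factor genes of the endothelial programme, 18 rose, none fell, 4 did not pass and KLF2 was too low to be tested (median 4.07). Of the ETS genes, FLI1 (chromosome 9, 55612905 to 55749784) went from 0.71, 0.08 and 0.09 to 69.5, 49.9 and 45.9 TPM (7.62 ± 0.48, adjusted p = 1.49e-10) and ERG (chromosome 13, 201999237 to 202302572) from 0.26, 0.34 and 0.2 to 21, 20.4 and 22.4 TPM (6.24 ± 0.42, adjusted p = 3.46e-10). No library of the groups overlapped for either gene. ETV2, the ETS factor that starts the endothelial and blood programme and is normally shut off again, stood at 7.64, 5.25 and 4.86 TPM on day 6 and 0.52, 0.11 and 0.21 TPM on day 0 (4.27 ± 0.54), and its highest mean of the 5 groups was 8.88 TPM on day 2. Without day 0 replicate 1, the changes of FLI1 and ETV2 were 9.22 and 5.04. ETS1, named after its values were seen, rose from 10.1 to 152 TPM but was at 307 TPM on day 1.

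The SOXF genes did not move as a group. SOX7 was at 0 on day 0 and at 8.57, 2.71 and 3.7 TPM on day 6 (at least 52-fold higher), and SOX18 went from 0.14, 0 and 0 to 5.44, 1.96 and 1.84 TPM (5.36 ± 1.06, and 7.03 without day 0 replicate 1). In both genes day 6 replicate 1 was the highest library. SOX17 stood at 27.9, 12.8 and 23.6 TPM in iPSCs and 28.4, 16.3 and 18.4 TPM on day 6, with overlapping libraries (-0.08 ± 0.24, adjusted p = 0.81), and peaked at 210.2, 130.2 and 114 TPM on day 1. TAL1, a partner of LMO2 in endothelial and blood progenitors, rose from 0.29, 0.12 and 0.36 to 11, 7.51 and 7.09 TPM (5.43 ± 0.54). GATA2 rose from 0.09, 0.48 and 0.19 to 8.01, 4.6 and 5.32 TPM (5.01 ± 0.49, and 5.76 without day 0 replicate 2), below its day 3 level of 15.6 TPM. BCL6B, a repressor enriched in endothelium, rose from 0.28, 0 and 0.07 to 48.8, 39.1 and 35 TPM (8.32 ± 0.58, and 9.80 without day 0 replicate 1). MEF2C rose from 1.02, 0.1 and 1.07 to 46.7, 49.3 and 45.5 TPM (5.87 ± 0.50). Chosen after their values were seen, LMO2 and MECOM rose from 8.24 to 63.4 and from 1.03 to 36 TPM. LMO2 averaged 54.9 TPM on day 2, and its difference from day 2 did not pass. EPAS1, the hypoxia-inducible factor HIF2A, rose from 0.543 to 12.2 TPM (4.43 ± 0.42). It averaged 17.85 TPM on day 3, and its difference from day 3 did not pass. HHEX stood at 23.1 and 19.8 TPM on days 0 and 6 and did not pass (-0.24 ± 0.23, adjusted p = 0.421).

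Of 20 arterial and Notch genes 12 rose, 2 fell and 6 did not pass, with a median of 1.69, and 9 were higher than on each of days 0 to 3. The Notch ligand gene DLL4 (chromosome 1, 130376720 to 130386411), an early arterial and tip cell marker, went from 0.07, 0.14 and 0 to 52.5, 39.5 and 29.2 TPM (8.91 ± 0.57, adjusted p = 8.1e-10). GJA5, which encodes the arterial gap junction protein connexin 40, went from 1.04, 0.56 and 0.99 to 135, 103 and 99.4 TPM (6.99 ± 0.27, adjusted p = 2.14e-13). GJA4 (connexin 37) had no reads on day 0 and stood at 16.6, 21.2 and 20.8 TPM on day 6 (at least 129.5-fold). All day 6 libraries lay above all day 0 libraries for these genes. The Notch target and arterial repressor gene HEY1 rose from 14.7, 11.8 and 12.9 to 120.4, 85.6 and 71.4 TPM (2.78 ± 0.22), the endothelial receptor gene NOTCH4 from 2.12, 0.98 and 1.32 to 6.16, 4.2 and 4.58 TPM (1.72 ± 0.36) and the arterial ephrin gene EFNB2 from 20.03, 17.9 and 18.6 to 104, 95.2 and 101 TPM (2.39 ± 0.27). CXCR4, the chemokine receptor of tip and arterial cells, rose from 59.8 to 195 TPM (1.67 ± 0.21), but was at 303 and 329 TPM on days 1 and 2. The ligand gene JAG1, named after its values were seen, rose from 14.3 to 58.9 TPM (2.02 ± 0.19), while the receptor gene NOTCH1, named in the same way, stood at 11.12 and 9.23 TPM and did not pass. HES1, a Notch target in many tissues, fell from 39.4, 30.3 and 28.2 to 17.8, 13.1 and 12.7 TPM (-1.21 ± 0.38, adjusted p = 0.013). That call was lost without day 0 replicate 1 (adjusted p = 0.072), day 6 replicate 2 (0.058) or day 6 replicate 3 (0.063). The DLL4 change was 9.77 without day 0 replicate 2. In the fit with the cardiomyocyte and neural progenitor libraries, NOTCH4 (adjusted p = 0.063), CXCR4 (0.24) and HES1 (0.16) no longer passed.

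Some venous and lymphatic genes were also higher on day 6 than on day 0. Of 13 genes 7 rose, 1 fell, 2 did not pass and 3 (CCL21, LYVE1 and STAB2) were too low to be tested. Against day 3, 4 were higher and 4 lower (median -0.06), and only 3 were above each of days 0 to 3. The summed level of the list was 283 to 408 TPM on day 6 and 632 to 818 TPM on day 3. NR2F2 (chromosome 7, 83076119 to 83090250), which encodes COUP-TFII and sets venous identity, went from 1.7, 0.96 and 0.76 to 178, 108 and 135 TPM (6.95 ± 0.29, adjusted p = 5.46e-13). It was at 55, 39 and 55.8 TPM in the somite libraries, and the difference from day 3 was 1.47 ± 0.21. The scavenger receptor gene STAB1, found on sinusoidal and lymphatic endothelium, rose from 0.35, 0.21 and 0.25 to 28.4, 15.3 and 17.3 TPM (6.25 ± 0.43). EPHB4, the venous receptor for EFNB2, stood at 23.6 and 18.8 TPM (-0.33 ± 0.23, adjusted p = 0.238), and PROX1, the lymphatic master regulator, at 1.88 and 1.68 TPM (-0.02 ± 0.40, 0.976). Neither passed, and both were named after their values were seen.

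The genes of endothelial G protein and other intracellular signalling rose nearly as a block: 16 of 19 were higher, none lower, 2 did not pass and GIMAP4 was too low to be tested (median 3.76), and 15 were above each of days 0 to 3. ADGRF5, an adhesion G protein-coupled receptor of endothelium, went from 0, 0 and 0.05 to 25.9, 22.6 and 22.4 TPM (10.06 ± 0.68, and 11.73 without day 0 replicate 3). Its relative ADGRL4 went from 1.55, 1 and 1.2 to 80.4, 58.4 and 61.4 TPM (5.70 ± 0.31). GNG11, a G protein gamma subunit, went from 0.94, 0.24 and 0.24 to 60.7, 50.7 and 49.8 TPM (6.69 ± 0.43, and 7.60 without day 0 replicate 1). All day 6 libraries lay above all day 0 libraries for these 3 genes. RASGRP3, an exchange factor that VEGF signalling uses, rose from 0.75, 0.45 and 0.57 to 67.3, 40.5 and 35 TPM (6.31 ± 0.30). The adrenomedullin receptor pair CALCRL and RAMP2, named after their values were seen, rose from 6.03 to 63.5 and from 6.75 to 48 TPM. The endothelin receptor gene EDNRB, named likewise, rose from 1.69 to 22.9 TPM (3.92 ± 0.33), whereas the adrenomedullin gene ADM stood at 0.727 and 1.64 TPM and did not pass (0.286). Day 6 replicate 1 was the highest of its group for 17 of the 19 genes, against 47.1% of all genes tested, and what that adds to these changes was not tested. Without that library 15 of the 19 passed as higher, and 16 passed without either of the others. Day 6 replicate 1 was also highest for 18 of 25 receptor and junction genes and 15 of 23 transcription factors. The same held for 12 of 20 VEGF, angiopoietin and apelin genes and 15 of 20 arterial and Notch genes. It held for 8 of 13 venous and lymphatic genes and 13 of 20 genes of mature function.

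Genes of mature endothelial function rose less uniformly, with 13 of 20 higher, 3 lower and 4 not passed. The median was 3.10, or 2.17 with members at 0 in a group set to the floor of 3 counts. VWF, the carrier of clotting factor VIII, went from 1.57, 0.9 and 1.19 to 21.7, 12.9 and 16.4 TPM (3.77 ± 0.31, adjusted p = 6.44e-09). NOS3, the endothelial nitric oxide synthase gene, went from 0.79, 0.24 and 0.62 to 8, 6.76 and 7.42 TPM (3.71 ± 0.46, adjusted p = 2.1e-06). Multimerin (MMRN1), stored with VWF, rose from 0.29, 0.69 and 0.29 to 68.3, 66.2 and 52.6 TPM (7.15 ± 0.37, and 7.74 without day 0 replicate 2). The selectin genes, whose products catch leukocytes, were low on day 6. SELE stood at 1.75, 2.28 and 2.43 TPM on day 6 and 0, 0.08 and 0.08 TPM on day 0 (5.18 ± 0.97), and SELP at 4.64, 7.3 and 4.54 TPM and 0 (at least 61.6-fold). The clotting inhibitor gene TFPI rose from 0.08 to 13.8 TPM, and the broad protease inhibitor gene A2M from 0.157 to 20.2 TPM (6.92 ± 0.36). The 3 members that fell belong to caveolae and fatty acid transport. CAV1, the main coat protein of caveolae, fell from 253, 193 and 199 to 35.4, 15.6 and 22.9 TPM (-3.23 ± 0.29, adjusted p = 2.17e-08), with no overlap, and averaged 8.13, 3.89 and 14.8 TPM on days 1, 2 and 3. Its partner CAV2 fell from 18.1 to 8.36 TPM (-1.21 ± 0.34), a call lost without day 6 replicate 2 (adjusted p = 0.054) or replicate 3 (0.055). FABP5 fell from 189 to 115 TPM (-0.74 ± 0.19). ICAM1 (7.47 and 8.47 TPM) and the endothelin gene EDN1 (1.31 and 2.53 TPM), named after their values were seen, did not pass. In the fit with the cardiomyocyte and neural progenitor libraries SELP, CAV2 and FABP5 no longer passed (adjusted p = 0.066, 0.45 and 0.21), which left 1 of the 20 lower, as did a minimum fold change of 2.

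Of 21 BMP and TGF-beta response genes 15 rose, none fell, 4 did not pass and 2 (ACVRL1 and BMP6) were too low to be tested (median 1.25). Against the day 3 somite libraries 3 were higher and 3 lower, where 20.8% and 21.1% of all genes tested were. The BMP target gene ID2, an inhibitor of basic helix-loop-helix factors, rose from 11.06, 11 and 8.7 to 123, 123 and 110.5 TPM (3.51 ± 0.21) and stood at 109 TPM on day 3. TGFBR2, the TGF-beta type II receptor gene, rose from 3.15, 2.84 and 3.9 to 48.2, 42.2 and 37.7 TPM (3.67 ± 0.24, adjusted p = 2.08e-10) and was higher than on each of days 0 to 3. The ligand genes TGFB2 and BMP4 rose from 1.79 to 25.4 and from 8.59 to 37.6 TPM, and BMP4 was higher still on day 1 (206 TPM) and day 3 (197 TPM). Of 18 basement membrane genes 11 rose, 1 fell and 6 did not pass (median 0.65). Nidogen 2 (NID2) rose from 3.75, 4.8 and 4.3 to 31.4, 22.9 and 26.8 TPM (2.64 ± 0.26) and perlecan (HSPG2) from 10.5, 4.92 and 5.67 to 44.6, 19.1 and 27.9 TPM (2.09 ± 0.44). The collagen IV genes COL4A1 and COL4A2, named after their values were seen, rose from 164 to 363 and from 53.2 to 147 TPM, to levels that did not pass as different from day 3. With the cardiomyocyte and neural progenitor libraries in the fit, 8 of the 21 BMP and TGF-beta genes and 3 of the 18 basement membrane genes passed as higher, and NID2, HSPG2, COL4A1 and COL4A2 did not (adjusted p = 0.12, 0.062, 0.46 and 0.15). Over all genes in that fit 1646 of 14248 passed as higher. With a minimum fold change of 2, 8 BMP and TGF-beta genes and 5 basement membrane genes passed as higher (8.3% of all genes tested did).

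Pluripotency genes fell, though not evenly. Of 25 genes 15 fell (24% of all genes tested did), 3 rose, 3 did not pass and 4 were too low to be tested, with a median of -1.99. POU5F1 (chromosome 7, 23564654 to 23570691), which encodes OCT4, went from 689, 797 and 666 to 2.66, 1.92 and 0.2 TPM (-8.95 ± 0.30, adjusted p = 3.61e-14). NANOG went from 69.3, 68.8 and 68.4 to 0.97, 0 and 0 TPM (-8.75 ± 0.56), with the only day 6 reads in replicate 1. PRDM14, a repressor that guards the pluripotent state, went from 95, 103 and 95.9 to 0, 0.11 and 0 TPM (-10.54 ± 0.47). These folds moved with single day 6 libraries, to -11.29, -8.01 and -8.04 for NANOG without replicates 1, 2 and 3. Without replicates 2 and 3 they were -12.21 and -9.93 for PRDM14 and -9.56 and -8.26 for POU5F1. The DNA methyltransferase gene DNMT3B fell from 1723, 1512 and 1567 to 28.7, 23.2 and 18.4 TPM (-6.17 ± 0.20, adjusted p = 2.32e-14). TDGF1, a nodal co-receptor, and OTX2, a factor of primed pluripotency and forebrain, were named after their values were seen and fell from 9.99 to 0.423 TPM (-4.46 ± 0.49) and from 138 to 8.92 TPM (-3.87 ± 0.21). The stem cell marker UTF1 went from 2.21, 1.44 and 1.93 TPM to 0 (at least 22-fold lower).

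Other genes of the list fell less or rose. SOX2 fell from 175, 171 and 176 to 57.5, 45.4 and 40.3 TPM (-1.90 ± 0.23, adjusted p = 1.28e-06), yet on day 6 it was higher than on days 1 to 3, where its means were 2.37, 2.88 and 9.3 TPM. LIN28A, which blocks the maturation of let-7 microRNAs, fell to 512, 687 and 589.8 TPM from 998, 1100.0 and 1105 TPM (-0.85 ± 0.17), and its paralog LIN28B rose from 120.3, 121 and 129 to 205, 232 and 263 TPM (1.02 ± 0.14, adjusted p = 7.7e-06). TFAP2C rose from 5.13 to 9.2 TPM (0.81 ± 0.20). DPPA5 had no reads on day 0 and stood at 86.1, 54.7 and 39.7 TPM on day 6, at least 119-fold higher, and at 0.317, 1.05 and 0.46 TPM on average on days 1 to 3. The summed level of POU5F1, NANOG, SOX2 and LIN28A was 1931 to 2137 TPM on day 0 and 573 to 734 TPM on day 6, most of it from LIN28A. With the cardiomyocyte and neural progenitor libraries in the fit, 9 of the 25 genes passed as lower, and SOX2 (adjusted p = 0.32) and TFAP2C (0.67) no longer passed. With a minimum fold change of 2, DPPA5 alone of the 25 passed as higher.

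Epithelial genes were lower on day 6 but far from absent. Of 24 genes 18 fell, none rose and 6 did not pass (median -1.10), and against day 3 all 24 were lower. CDH1, the gene of E-cadherin, fell from 746, 583 and 608 to 128, 117 and 120.4 TPM (-2.42 ± 0.20, adjusted p = 6.63e-09), a level above CDH5 in each day 6 library. EPCAM, named after its values were seen, fell from 652, 615 and 667 to 241, 330.2 and 318 TPM (-1.13 ± 0.17). The largest falls were in the tight junction gene CLDN10, from 96.4, 106 and 96.4 to 8.9, 7.02 and 3 TPM (-4.09 ± 0.29), and the membrane protease gene ST14, from 264, 228 and 225 to 35.7, 39 and 37.7 TPM (-2.71 ± 0.15). The groups did not overlap for these 4 genes. Keratin 8 (KRT8), also named after its values were seen, stood at 2920.4, 2963 and 2885 TPM on day 0 and 2091, 2692 and 2358 TPM on day 6 and did not pass (-0.31 ± 0.19, adjusted p = 0.182), and its partner KRT18 fell from 2249, 2062 and 1924 to 1199, 1450.2 and 1347 TPM (-0.66 ± 0.16). The summed level of CDH1, EPCAM, KRT8 and KRT18 was 6084 to 6567 TPM on day 0 and 3658 to 4589 TPM on day 6. In the fit with the cardiomyocyte and neural progenitor libraries, 6 of the 24 passed as lower, and EPCAM and KRT18 did not (adjusted p = 0.17 and 0.74). At a minimum fold change of 2, 7 passed as lower.

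Of 25 mesenchymal and fibroblast genes 19 rose, 1 fell and 5 did not pass (median 2.32). The intermediate filament gene VIM rose from 323, 265 and 261 to 971, 820.1 and 844 TPM (1.62 ± 0.13, adjusted p = 3.72e-09). COL3A1, a chain of the collagen of soft connective tissue, rose from 28.1, 14 and 18.7 to 429.7, 423 and 760.0 TPM (4.72 ± 0.25), and the proteoglycan gene DCN from 0.17, 1.18 and 0.85 to 55.6, 63 and 47.8 TPM (6.18 ± 0.37). All day 6 libraries of the 3 genes were above day 0, and the COL3A1 level was highest in replicate 3. CDH2, the N-cadherin gene, was named after its values were seen and rose from 85.2 to 149 TPM (0.78 ± 0.16). The growth factor receptor genes PDGFRA and PDGFRB, which mark mesenchyme and mural cells, rose from 1.46 to 38.9 TPM (4.72 ± 0.21) and from 0.76 to 8.47 TPM (3.46 ± 0.43). LUM rose from 0.463 to 8.09 TPM (4.08 ± 0.54), while the collagen-crosslinking enzyme gene LOX fell from 8.14 to 2.41 TPM (-1.69 ± 0.34). COL1A1, named after its values were seen, stood at 122, 46.8 and 59.3 TPM on day 0 and 83.2, 39.1 and 61.5 TPM on day 6 with overlapping libraries (-0.33 ± 0.32, adjusted p = 0.417). The summed level of the fibroblast markers COL1A1, COL1A2, DCN, LUM and THY1 ran from 134 to 287 TPM on day 0 and from 272 to 340 TPM on day 6. The part of such cells in the endothelial changes was not tested. With the cardiomyocyte and neural progenitor libraries in the fit, 12 of the 25 passed as higher, and COL3A1, LUM and LOX no longer passed (adjusted p = 0.088, 0.17 and 0.29). Their log2 fold changes in that fit were 4.77, 4.12 and -1.67.

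Of 18 smooth muscle and pericyte genes 2 rose, 5 fell, 8 did not pass and 3 were too low to be tested (median -0.11), and 11 were lower than on day 3. The share of tested members that passed against day 0 was near the 47.7% of all genes tested. ACTA2, smooth muscle actin, stood at 11.6, 14.6 and 15.4 TPM on day 0 and 19.7, 12.7 and 11.6 TPM on day 6 (0.01 ± 0.28, adjusted p = 0.988) against 908 TPM on day 3. TAGLN fell from 237, 184 and 182 to 69.2, 52.5 and 52.2 TPM (-1.83 ± 0.16) and CNN1 from 13.4, 20.1 and 19 to 1.21, 1.26 and 0.89 TPM (-3.97 ± 0.27), both regulators of the actin cytoskeleton. HIGD1B, which in some tissues marks pericytes, went from 13.6, 11.6 and 17.8 TPM to 0 (at least 41.5-fold lower). The pericyte genes that rose were RGS5, a regulator of G protein signalling, from 0.24, 0.48 and 0.36 to 7.58, 9.16 and 7.08 TPM (4.39 ± 0.66), and the potassium channel subunit gene ABCC9, from 0 to 1.51, 1.17 and 2.59 TPM (at least 37.9-fold). The sum of ACTA2, TAGLN, CNN1, MYH11, PDGFRB and RGS5 was 219 to 264 TPM on day 0 and 83.1 to 106 TPM on day 6. Most of it came from TAGLN in both groups, so its fall is mainly that of TAGLN. Within the sum TAGLN and CNN1 fell, PDGFRB and RGS5 rose, and ACTA2 did not pass. With the cardiomyocyte and neural progenitor libraries in the fit, 1 of the 18 passed as lower (1106 of all 14248 genes did), and TAGLN and CNN1 did not (adjusted p = 0.47 and 0.16). With a minimum fold change of 2, 3 passed as lower, and in the fit of the 6 libraries alone 4 passed as higher.

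Blood genes, which share early regulators with endothelium, were low or not detected in most cases. Of 28 genes 15 were too low to be tested, 2 rose, 3 fell and 8 did not pass. Of all genes tested 23.7% rose and 24% fell, and the share of tested members that fell was near the latter. RUNX1, needed for blood to form from endothelium, stood at 0.69, 0.35 and 0.18 TPM on day 0 and 0.36, 0.23 and 0.28 TPM on day 6 (0.20 ± 0.79, adjusted p = 0.857). PTPRC, which encodes the leukocyte antigen CD45, fell from 0.7, 0.56 and 0.57 to 0, 0.04 and 0 TPM (-4.70 ± 1.05, and -6.36 and -4.11 without day 6 replicates 2 and 3). The sum of 7 blood markers (PTPRC, RUNX1, SPI1, GATA1, ITGA2B, TYROBP and LCP1) was 2.89 to 3.59 TPM on day 0 and 4.8 to 4.93 TPM on day 6, with GATA1 at 0 on day 6. The lysosomal membrane gene LAPTM5, used on the list as a leukocyte gene, rose from 0, 0.22 and 0 to 44.9, 36.3 and 40.9 TPM (8.80 ± 0.52, and 11.23 without day 0 replicate 2). The other gene of the list that rose was GATA3, which also serves T cells and trophectoderm, from 4.25 to 23.2 TPM (2.43 ± 0.31). CORO1A, another leukocyte gene, fell from 11.5, 9.64 and 9.58 to 2.68, 1.57 and 0.9 TPM (-2.73 ± 0.33). It did not pass in the fit with the cardiomyocyte and neural progenitor libraries (adjusted p = 0.2), where 1 of the 28 and 1106 of all 14248 genes passed as lower.

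Regulators of other lineages were also higher on day 6. Of 22 genes of lateral and cardiac mesoderm 12 rose, 1 fell, 6 did not pass and 3 were too low to be tested (median 1.87). Against day 3 the counts were 5 higher and 10 lower (20.8% and 21.1% of all genes tested were), with a median of -1.33. With the cardiomyocyte and neural progenitor libraries in the fit 6 passed as higher than on day 0. HAND2 went from 0, 0.16 and 0.17 to 42.1, 48.2 and 54.3 TPM (8.47 ± 0.55) and HAND1 from 0.13, 0.13 and 0.2 to 25.5, 18.8 and 20.5 TPM (7.09 ± 0.42), both factors of lateral mesoderm and heart. HAND1 averaged 15.9 TPM on day 1, and its difference from day 1 did not pass. The heart markers were low, with a sum over TNNT2, MYL7, NKX2-5, ACTN2 and MYH7 of 8.82 to 13.8 TPM on day 0 and 21.8 to 32.8 TPM on day 6. Of 12 trophectoderm and amnion genes 10 rose, 1 fell and 1 did not pass (median 3.95). Against day 3, 5 were higher and 4 lower (median 0.31), and 3 were above each of days 0 to 3. The summed level of the list was lower on day 6, at 3610 to 4413 TPM, than on day 0 (4881 to 5260 TPM) and day 3 (11608 to 15373 TPM). TFAP2A went from 0.41, 0.82 and 0.17 to 25.1, 17.5 and 17.8 TPM (5.31 ± 0.47, and 6.04 without day 0 replicate 2). TP63, a factor of surface epithelium, went from 0.14, 0 and 0.05 to 7.55, 7.49 and 7.68 TPM (6.96 ± 0.59, and 7.78 without day 0 replicate 1). GATA3 rose from 6.08, 2.48 and 4.18 to 23.3, 19.8 and 26.4 TPM and ELF5, named after its values were seen, from 2.45, 2.83 and 0.83 to 37.3, 59.6 and 46.9 TPM (4.42 ± 0.33), and neither passed as different from day 3. CDX2, on the trophectoderm and the presomitic lists, rose from 0.38, 0 and 0.26 to 22.7, 27.4 and 26.2 TPM (6.76 ± 0.50, and 7.43 without day 0 replicate 1), below its day 2 mean of 74.1 TPM.

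Of 14 neural and neural crest genes 10 rose, none fell, 3 did not pass and NEUROG2 was too low to be tested (median 1.45). TFAP2B, a neural crest factor, was at 0 on day 0 and at 5.91, 7.89 and 9.57 TPM on day 6 (at least 101-fold higher). SOX10, which marks neural crest, went from 0.28, 0.28 and 0 to 5.5, 1.92 and 2.19 TPM (4.64 ± 0.82). PAX6, named after its values were seen, went from 0.5, 0.37 and 0.19 to 4.87, 1.93 and 2.7 TPM (3.10 ± 0.60), against 254 to 360 TPM in the 3 neural-like libraries left out of the fit. In the fit that included those libraries PAX6 did not pass (adjusted p = 0.36), and 2 of the 14 genes passed as higher, against 1646 of all 14248 genes. Of the 14, 6 passed with a minimum fold change of 2.

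On the list of 20 genes of primitive streak, presomitic mesoderm and somite, 7 rose, 5 fell, 7 did not pass and RIPPLY2 was too low to be tested, and 3 fell with a minimum fold change of 2. Of all genes tested 23.7% rose and 24% fell, and the share of tested members that fell was near the latter. T, which encodes brachyury, fell from 12.1, 8.29 and 10.6 to 0.33, 0 and 0.25 TPM (-5.90 ± 0.48), EOMES from 13.9, 8.03 and 11.9 to 0.15, 0.11 and 0.18 TPM (-6.20 ± 0.34) and GSC from 9.08, 9.92 and 4.62 to 0, 0.31 and 0 TPM (-5.59 ± 0.63). The change of T was -5.15 and -6.55 without day 6 replicates 2 and 3, and that of GSC -8.02 without replicate 2 and -4.91 without replicate 3. FGF8, a growth factor of the streak and presomitic mesoderm, rose from 0.2, 0.2 and 0.4 to 1.35, 2.43 and 4.83 TPM (3.38 ± 0.68), below its day 1 mean of 9.78 TPM. MSGN1, a presomitic factor at 91.1 TPM on day 2 and named after its values were seen, had no reads in either group. The dermomyotome and somite factor genes MEOX1 and PAX3 rose from 0.153 to 13.6 TPM (6.53 ± 0.56) and from 0.427 to 11.6 TPM (4.74 ± 0.46) and were above each of days 0 to 3. On the endoderm list of 14 genes 2 rose, 3 fell, 3 did not pass and 6 were too low to be tested. The share of its tested members that rose was near the 23.7% of all genes. CER1, a secreted nodal and BMP inhibitor, fell from 49.9, 48.1 and 48.2 to 0.38, 0.59 and 0.29 TPM (-6.75 ± 0.24), and FOXA2, the endoderm and node factor, from 10.7, 6.51 and 6.36 to 0.25, 0.18 and 0.85 TPM (-4.12 ± 0.61, and -5.24 without day 6 replicate 3).

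**Figure D4:**
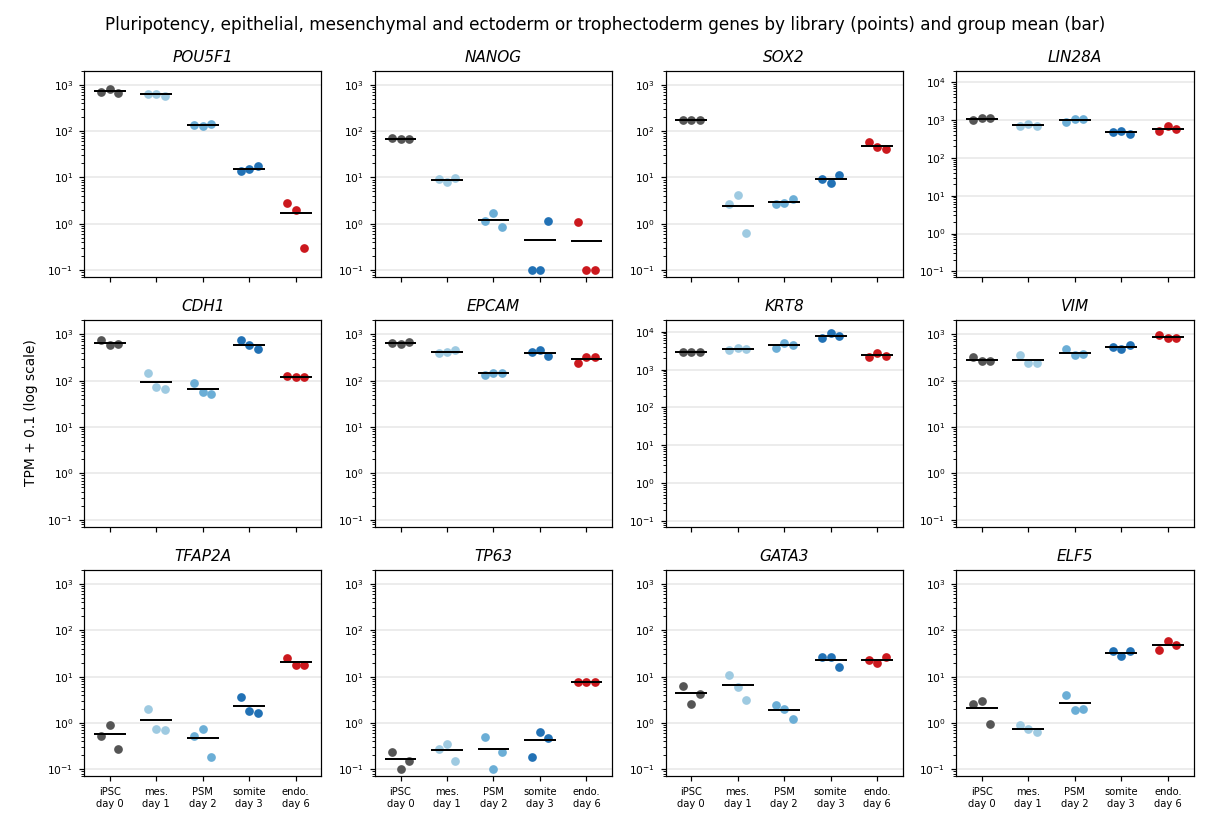
Levels of 12 pluripotency, epithelial, mesenchymal and ectoderm or trophectoderm genes in the 15 clone 8 libraries (points), as TPM + 0.1 on log axes, with group means as bars. POU5F1 and NANOG ended near 1 TPM or below on average, LIN28A was at 512 TPM or more and KRT8 at 2091 TPM or more on day 6, and TP63 was at 7.49 to 7.68 TPM on day 6 and under 1 TPM before.

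The shares of cell cycle and glycolysis genes that passed were near the 47.7% of all genes tested. Of 22 cell cycle genes 3 rose, 7 fell and 12 did not pass (median -0.28). The mitotic kinase gene PLK1 fell from 102, 83.8 and 86.5 to 40.2, 37.3 and 44.9 TPM (-1.17 ± 0.17) and the anaphase activator gene CDC20 from 186, 192 and 179.7 to 93.6, 99.8 and 101 TPM (-0.93 ± 0.13), while the proliferation marker MKI67, named after its values were seen, stood at 76.3, 58.6 and 70.0 TPM on day 0 and 42.2, 43.5 and 67 TPM on day 6 (-0.43 ± 0.34, adjusted p = 0.318). Of the cyclin-dependent kinase inhibitor genes, CDKN1A fell from 32.3, 33.5 and 27.4 to 5.52, 7.58 and 10.01 TPM (-1.97 ± 0.23) and CDKN1C rose from 4.05, 2.64 and 2.67 to 33.7, 21.3 and 14.2 TPM (2.83 ± 0.36). Of 23 glycolysis and hypoxia genes 7 rose, 5 fell and 11 did not pass (median 0.01). PDK1, which holds pyruvate back from the mitochondria, rose from 40.6, 51.5 and 33.3 to 153, 128 and 127 TPM (1.71 ± 0.18), and the platelet phosphofructokinase gene PFKP fell from 30.7, 36 and 37 to 3.1, 5.23 and 5.25 TPM (-2.87 ± 0.24). Of 24 cytoskeleton and adhesion genes 8 rose, 11 fell and 5 did not pass. The hyaluronan receptor gene CD44 fell from 18.8, 11.7 and 16.7 to 1.26, 1.32 and 1.24 TPM (-3.75 ± 0.22) and the laminin-binding integrin gene ITGB4 from 18.8, 14.2 and 15.8 to 0.9, 0.78 and 1.41 TPM (-3.95 ± 0.32). Collagen-binding ITGA1 rose from 0.73, 0.12 and 0.5 to 7.36, 6.76 and 7.86 TPM (4.02 ± 0.48). With the cardiomyocyte and neural progenitor libraries in the fit, CDKN1A no longer passed (adjusted p = 0.15). In that fit 3 cell cycle genes were lower, 2 glycolysis genes were higher and 2 lower, and 2 cytoskeleton genes were higher and 3 lower. Of all 14248 genes in it 1646 were higher and 1106 lower. With a minimum fold change of 2 the cell cycle list kept 1 higher and 1 lower, the glycolysis list 1 and 2, and the cytoskeleton list 2 and 5. In the fit of the 6 libraries alone 5 cell cycle genes were higher.

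Set against the day 3 somite libraries, day 6 differed at 5691 of 13597 genes (41.9%), 2828 higher (20.8%) and 2863 lower (21.1%). This comparison uses the same day 6 libraries, so the values are given side by side only. Of the 3222 genes higher than on day 0, 1414 were also higher than on day 3 and 383 were lower. Of the 3264 lower than on day 0, 1104 were also lower than on day 3 and 393 were higher. For endothelial receptors and junctions the counts against day 3 were 20 higher and 1 lower of 24 tested, the counts found against day 0. CDH5 was 6.44 ± 0.37 higher than on day 3, PECAM1 9.61 ± 0.32 and KDR 4.53 ± 0.22 (log2 differences). Of the transcription factors, 15 were higher and 3 lower than on day 3, the lower ones being ETS2, GATA2 and FOXC2. For smooth muscle and pericyte genes the day 3 counts were 1 higher and 11 lower, and for cytoskeleton and adhesion genes 2 higher and 22 lower.

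The 12 largest rises among genes with at least 10 TPM in the higher group, ranked by log2 fold change, mixed endothelial genes with others. The rank used the edgeR value, also for genes with no reads on day 0, so membership depends on it. ARHGDIB ranked by 9.86, but at the floor of 3 counts its value was 7.12. That is below the 9.04 of PECAM1, which was not among the 12. MRC1, the mannose receptor of macrophages and of sinusoidal and lymphatic endothelium, was at 0 on day 0 and at 24.9, 14.8 and 17.3 TPM on day 6 (at least 366-fold higher). MYCT1, a target of the endothelial ETS factors, went from 0.09, 0 and 0 to 72.1, 50.8 and 51.4 TPM (10.28 ± 0.48, and 11.94 without day 0 replicate 1). ARHGDIB, a gene known from blood and endothelial cells, was at 0 and then 34.3, 27.3 and 25.8 TPM (at least 139-fold). The trunk patterning genes HOXB8 and HOXC8 were near or at 0 on day 0. HOXB8 reached 33.8, 33.3 and 30.2 TPM from 0 (at least 276-fold) and HOXC8 50.5, 50.2 and 49.4 TPM from 0, 0.11 and 0 TPM. PENK, which encodes the opioid precursor proenkephalin, was at 0 and then 10.8, 24.2 and 29.3 TPM (at least 137-fold). CDH5, CD93, ADGRF5, EMCN, GJA4 and DPPA5 were the other 6.

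The largest falls were ranked by the same rule, again with the edgeR value for genes at 0 on day 6. Beside PRDM14, POU5F1, NANOG, CER1 and HIGD1B they included ZSCAN10, a zinc finger gene of pluripotent cells (19.7, 14.1 and 17.1 to 0.5, 0.09 and 0 TPM), and ERAS, a constitutively active Ras of embryonic stem cells (95.6, 102 and 92.3 to 1.6, 0.35 and 0.74 TPM, -7.04 ± 0.36). VRTN, which affects the number of vertebrae in pigs, fell from 80.4, 62.1 and 64.2 to 0.18, 0.13 and 0.14 TPM (-8.84 ± 0.36) and was at 94.6 TPM on day 1. The chemokine gene CXCL13 and the keratin gene KRT6A went from 30.5, 28.4 and 30.4 TPM and from 14.5, 15.4 and 13.3 TPM to 0 (at least 133-fold and 118-fold lower). DGKB, a diacylglycerol kinase gene, went from 12.7 to 0.103 TPM. No day 6 library of these genes overlapped a day 0 library, which the rule required.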

How the data were processed

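Bulk RNA of pig cells was sequenced, and the table the authors deposited gives RSEM expected counts (estimated counts per gene, not normalized) and TPM for each library. The submitters' processing notes name the Sscrofa11.1 build and, as tools, RSEM 1.2.3, Bowtie 1.2.3 and bcl2fastq. Whether counting used strand is not stated in these sources, which leaves overlapping, antisense and near-identical genes uncertain. Of 20683 genes, 20618 matched a RefSeq symbol, which gave the coordinates.

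Expected counts were rounded, and the absolute changes summed to 0.016% of all counts in the 15 libraries. Genes with few reads can move by a larger share. Genes were kept by filterByExpr with a minimum count of 10, scaled by TMM and fitted with edgeR 4.0.16 (R 4.3.3) as 5 groups of 3 libraries with 10 residual degrees of freedom, followed by the quasi-likelihood F test with Benjamini-Hochberg adjustment over 13597 genes. The scripts were tested on simulated data. Alternatives used DESeq2 1.42.0, limma 3.58.1 on log2(TPM + 1) and log2(TPM + 0.1), other scaling and filters, a minimum fold change, other sets of libraries and each library left out. Libraries of 1 group differed by more than sampling noise in every pair, so none was counted as a repeat.

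The comparison and the 22 lists (431 genes, of which 389 were tested and 277 passed) were chosen with earlier results of these data known. The text names the core genes of each list, all VEGF, angiopoietin and apelin genes, up to 5 passing members per list in the commoner direction and 3 in the other with at least 1 TPM, and the 12 largest rises and falls with at least 10 TPM and no overlap of libraries; other genes are named as chosen after their values were seen. Fold changes of genes at 0 in a group use a floor of 3 counts over that group, for counting error only. Ranks, tests and list medians use the edgeR value unless the floor is named. Promoter sequences were not used here, and a few genes that meet the rule are not reported here.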

Additional observations from a re-analysis of the deposited data

How the results depend on the processing

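The number of genes that differed between day 6 and day 0 (6486) stayed within 1.5 times of this value under 13 of the 15 alternatives run, and no named gene that passed changed sign under any of them. With a minimum fold change of 2, 1912 genes passed against day 0, 1732 against day 3 and 304 as higher than each of days 0 to 3. With all 21 clone 8 libraries in the fit, cardiomyocyte and neural progenitor groups taken as labelled, 2752 of 14248 genes passed against day 0 (1646 higher and 1106 lower) and 2188 against day 3. Each of those added groups holds a library that went against its label. Named genes that lost their call there kept similar log2 fold changes. COL3A1, as an example, had 4.77 against 4.72 in the main fit, and SOX2 -1.84 against -1.90. Leaving out 1 library gave 5433 to 5902 genes against day 0, 4693 to 5443 against day 3, 790 to 885 higher than each of days 0 to 3, and 264 to 270 list genes, against 277 with all libraries. The alternatives for list genes, other than the minimum fold change, were chosen after seeing the data. Of the genes named, 46 lost their call with all 21 libraries and 33 with the minimum fold change, and at most 8 under any other alternative.

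Same-numbered libraries of day 0 and day 6 deviated from their group means with correlations of 0.047, 0.102 and 0.0046. Day 6 replicates 1 and 2 each correlated best with the same-numbered day 0 library, and replicate 3 with day 0 replicate 1 (0.0097). Whether equal numbers mark pairs is not settled by these values, and the main fit did not take them as pairs. With a replicate block 7164 genes passed against day 0, 6311 against day 3, 988 as higher than each of days 0 to 3 and 298 list genes, with 5 cell cycle genes higher and 8 glycolysis genes lower. The depth of day 6 replicate 1 (3649335 counts) limits what can be seen of genes near 0, and folds of such genes depend on a few reads.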

Other observations

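Gene families outside the lists, chosen after their values were seen, also differed between day 6 and day 0. HOX genes, which set position along the body axis, were nearly absent from the iPSC libraries. Of the 36 HOX genes analysed here 24 rose, none fell, 2 did not pass (HOXA13 and HOXD13) and 10 were too low to be tested. All 4 clusters were involved, with 8 HOXA, 7 HOXB, 5 HOXC and 4 HOXD genes higher, and 17 of the genes were above each of days 0 to 3. HOXC6 was at 0 on day 0 and at 19.2, 13.8 and 17.6 TPM on day 6 (at least 118-fold), and HOXC9 at 0 and 12.4, 10.6 and 10.3 TPM (at least 68.6-fold). Of 8 PAX genes 6 rose, 1 fell (PAX5) and 1 was too low to be tested. PAX1 and PAX9, known from sclerotome and pharyngeal pouch, rose from 0.07, 0.1 and 0.1 to 40.1, 28.6 and 30.3 TPM and from 0.31, 0.4 and 0.31 to 23, 19.5 and 19.8 TPM.

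Genes of antigen presentation by MHC class II were also higher on day 6. Of 9 class II genes including the invariant chain gene CD74, 8 rose and 1 was too low to be tested, and all 8 were above each of days 0 to 3. CD74 went from 1.22, 0.62 and 0.41 to 48.3, 69.5 and 57.9 TPM (6.91 ± 0.40), and the activator gene CIITA from 0, 0.08 and 0.07 to 2.06, 3.64 and 3.35 TPM. SLA-DQA1 reached 73.4, 82 and 64.2 TPM from 0, 0.45 and 0 TPM, and SLA-DRA 4.1, 10.7 and 4.21 TPM from 0 (at least 34.7-fold). Class I genes and B2M passed as higher in 2 of 8 cases, near the 23.7% of all genes tested that did. SLA genes are near-identical copies, so their separate values are uncertain. IFNG, which encodes interferon gamma, was at 0 on day 0 and at 27.3, 4.77 and 11.8 TPM on day 6 (at least 30.4-fold, edgeR adjusted p = 0.000413, and 0.17 with DESeq2). IRF1, an interferon regulatory factor gene, stood at 7.11, 7.05 and 5.84 TPM on day 0 and 3.24, 3.8 and 4.68 TPM on day 6 and did not pass (adjusted p = 0.0555, or 0.033 in the fit of the 6 libraries alone, where it did).

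Single genes outside the lists gave further large rises. ESM1, a secreted tip cell marker, rose from 4.36, 5.13 and 5.04 to 214, 145 and 147 TPM (5.08 ± 0.24) and SEMA3A, a guidance ligand of NRP1, from 0.38, 0.3 and 0.38 to 36.3, 41.4 and 40.2 TPM (7.09 ± 0.31). The neurofilament gene NEFL rose from 2.87, 2.34 and 2.09 to 44.7, 72 and 86.5 TPM (4.79 ± 0.25) and the prostaglandin synthase gene PTGS2 from 1.14, 1.7 and 1.23 to 36.5, 21.7 and 17 TPM (4.15 ± 0.35). FCGR3A, an immunoglobulin receptor gene, went from 0 to 23.1, 13 and 14.5 TPM (at least 55.6-fold), and GPR182, an endothelial receptor gene, from 0.05, 0.27 and 0.27 to 13.7, 8.79 and 7.64 TPM. No day 6 library of these 6 genes overlapped a day 0 library.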
